A study of Mus musculus with 12 samples.

Results

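The small leucine-rich proteoglycan genes were followed through doxorubicin and hydrogen peroxide treatment of cultured mouse mammary fibroblasts. The members were the 9 genes Dcn, Bgn, Lum, Fmod, Prelp, Ogn, Aspn, Omd and Podn, matched by symbol among the 55487 genes of the expression table. All 9 passed the filter on low values, as did 13280 genes in all. Lum reached 1 CPM (counts per 1000000 assigned reads) in 1 of the 6 vehicle libraries and Podn in 0 of them, so these 2 members passed through their treated libraries. The other 7 members were at 1 CPM or more in all 12 libraries.

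Small leucine-rich proteoglycans are secreted proteins with a curved core of leucine-rich repeats, most of which carry chondroitin, dermatan or keratan sulfate chains. They bind collagen fibrils in the extracellular matrix, where they limit and align fibril growth, and several also bind growth factors such as TGF-beta or cell-surface receptors. Stromal fibroblasts are a main source of them in connective tissue, the mammary stroma included. The family is divided by sequence into classes. Decorin (Dcn), biglycan (Bgn) and asporin (Aspn) are in class I, fibromodulin (Fmod), lumican (Lum), PRELP (Prelp) and osteomodulin (Omd) in class II, osteoglycin (Ogn) in class III and podocan (Podn) in class V.

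The cells were a single primary fibroblast line (MMF) that was grown out of the mammary fat pad of a healthy mouse of the B6 strain, and all 4 groups of 3 libraries came from it. The doxorubicin group received 100 nM of this topoisomerase poison for 24 h, its medium was renewed every 3 days, and cells were lysed on day 7. The peroxide group received 750 uM hydrogen peroxide for 2 h followed by 48 h of recovery, 3 times in all, with lysis on day 6. Both had a separate group that received water as vehicle, and those vehicle cells were passaged to hold their density, which the treated cells were not said to be. The labels name these regimens as ways to induce senescence. They do not say whether libraries of a group came from separate cultures, so the p-values measure the spread between these libraries, which may be technical. In these bulk libraries, fewer cells that express a gene and less of its RNA per cell cannot be told apart.

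Estimated depth was 17.3 to 37.6 M reads per library, and 3 reads correspond to 0.0798 to 0.173 CPM. Of 18 fibroblast identity markers, 11 were at a mean of 10 CPM or more in 3 of the groups and 10 in the peroxide vehicle, and Tcf21 was at 0 in every group. On the second principal component of all tested genes, which held 23.7% of the variance, peroxide replicate 2, doxorubicin vehicle replicate 3 and doxorubicin replicate 1 stood apart from the other libraries of their groups. Results that change without these libraries are given both ways.

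Upstream sequences are shown for the 3 chromosome 13 neighbours, whose responses to peroxide exceeded those to doxorubicin, and for the 2 chromosome 1 members, one of which rose with both treatments and the other with doxorubicin. Each is the 250 bases before the start of the gene in RefSeq (GRCm38.p6), 5′ to 3′ on the strand of the gene. Of the 9 members, 7 were matched in the RefSeq promoter table. Capitals mark matches on either strand to a TATA box, a CCAAT box or a TEAD motif, whose letters are given with their counts, so a match on the opposite strand reads as its reverse complement. The windows are Aspn chr13:49544193-49544442 (plus strand), Omd chr13:49582212-49582461 (plus strand), Ogn chr13:49607765-49608014 (plus strand), Prelp chr1:133921402-133921651 (minus strand) and Fmod chr1:134037004-134037253 (plus strand).
Aspn: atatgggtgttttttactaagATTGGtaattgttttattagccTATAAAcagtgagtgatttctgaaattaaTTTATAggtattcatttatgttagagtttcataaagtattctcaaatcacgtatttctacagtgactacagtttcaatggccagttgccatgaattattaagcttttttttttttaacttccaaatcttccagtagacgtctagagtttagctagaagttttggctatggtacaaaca
Omd: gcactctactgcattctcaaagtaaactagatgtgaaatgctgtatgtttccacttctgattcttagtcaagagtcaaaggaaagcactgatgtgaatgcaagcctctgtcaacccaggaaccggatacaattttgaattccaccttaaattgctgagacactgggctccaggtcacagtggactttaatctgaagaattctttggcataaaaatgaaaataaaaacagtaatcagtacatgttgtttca
Ogn: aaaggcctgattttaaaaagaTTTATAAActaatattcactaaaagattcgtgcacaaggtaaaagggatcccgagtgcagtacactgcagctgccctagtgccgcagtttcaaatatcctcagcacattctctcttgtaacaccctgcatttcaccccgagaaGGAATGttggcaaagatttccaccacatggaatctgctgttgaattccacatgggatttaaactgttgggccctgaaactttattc
Prelp: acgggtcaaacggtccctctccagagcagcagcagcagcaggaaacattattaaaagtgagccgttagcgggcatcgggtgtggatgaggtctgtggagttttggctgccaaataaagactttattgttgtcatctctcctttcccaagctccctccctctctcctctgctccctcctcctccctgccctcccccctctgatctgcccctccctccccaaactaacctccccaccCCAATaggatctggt
Fmod: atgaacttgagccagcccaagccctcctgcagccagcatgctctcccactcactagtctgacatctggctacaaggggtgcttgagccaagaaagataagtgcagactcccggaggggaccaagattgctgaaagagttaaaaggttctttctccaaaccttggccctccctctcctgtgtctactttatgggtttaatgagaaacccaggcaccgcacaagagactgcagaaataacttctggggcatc

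The 3 windows of chromosome 13 were poor in G and C, at 30.0% for Aspn, 38.4% for Omd and 42.0% for Ogn, against a median of 52.4% over the 32851 promoter windows of the table. Prelp was at 55.6% and Fmod at 51.2%. The TATA box, TATAAA, was found in the Aspn and Ogn windows and in 12.4% of all windows. In the Aspn window it began at bases -207 and -178, and in the Ogn window at -229 and -227, where matches on the 2 strands overlap. The CCAAT box, CCAAT, was found for Aspn and Prelp and in 33.8% of all windows. The TEAD motif, GGAATG, was found for Ogn and in 12.6% of all windows. A GC box (GGGCGG) was found for Bgn and Podn and in 32.7% of all windows. No member window held the AP-1 motif TGANTCA, which was in 6.75% of all windows. The forkhead motif GTAAACA, in 3.17%, and the E-box CACGTG, in 6.02%, were likewise not found in them. None of the motifs searched was found in the Fmod and Omd windows.

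With each treatment, 8 of the 9 members rose and none fell (0 by limma, by an unadjusted p below 0.05 and by limma voom). A gene was called at an adjusted p below 0.05, on log2(CPM + 1) values, which understate the change of genes with low values. Among all tested genes 22.1% were called higher and 27.8% lower with doxorubicin, and 27.3% higher and 23.4% lower with peroxide. The 8 called members lay above their vehicle without overlap in each experiment, as did 26.1% of tested genes with doxorubicin and 30.7% with peroxide. Lum and Podn passed the filter through their treated libraries, so the counts of 8 are partly set by it. Of the 7 members at 1 CPM or more in all 12 libraries, 6 were called higher and 0 lower with each treatment. These 7 members had a median log2 fold change of 1.02 with doxorubicin and 2.34 with peroxide, beside -0.03 and -0.01 over all tested genes. Increases of at least 2 log2 units were called for 3 members with doxorubicin and 5 with peroxide, Lum among the latter. Among these 7 members they were called for 3 and 4, and among tested genes for 2.17% and 1.45%. The exceptions differed: Omd was not called with doxorubicin and Fmod was not called with peroxide. The 7 members other than Omd and Fmod, with Lum and Podn among them, rose with both, as did 1729 of the 13280 tested genes (13.02%).

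**Figure D1:**
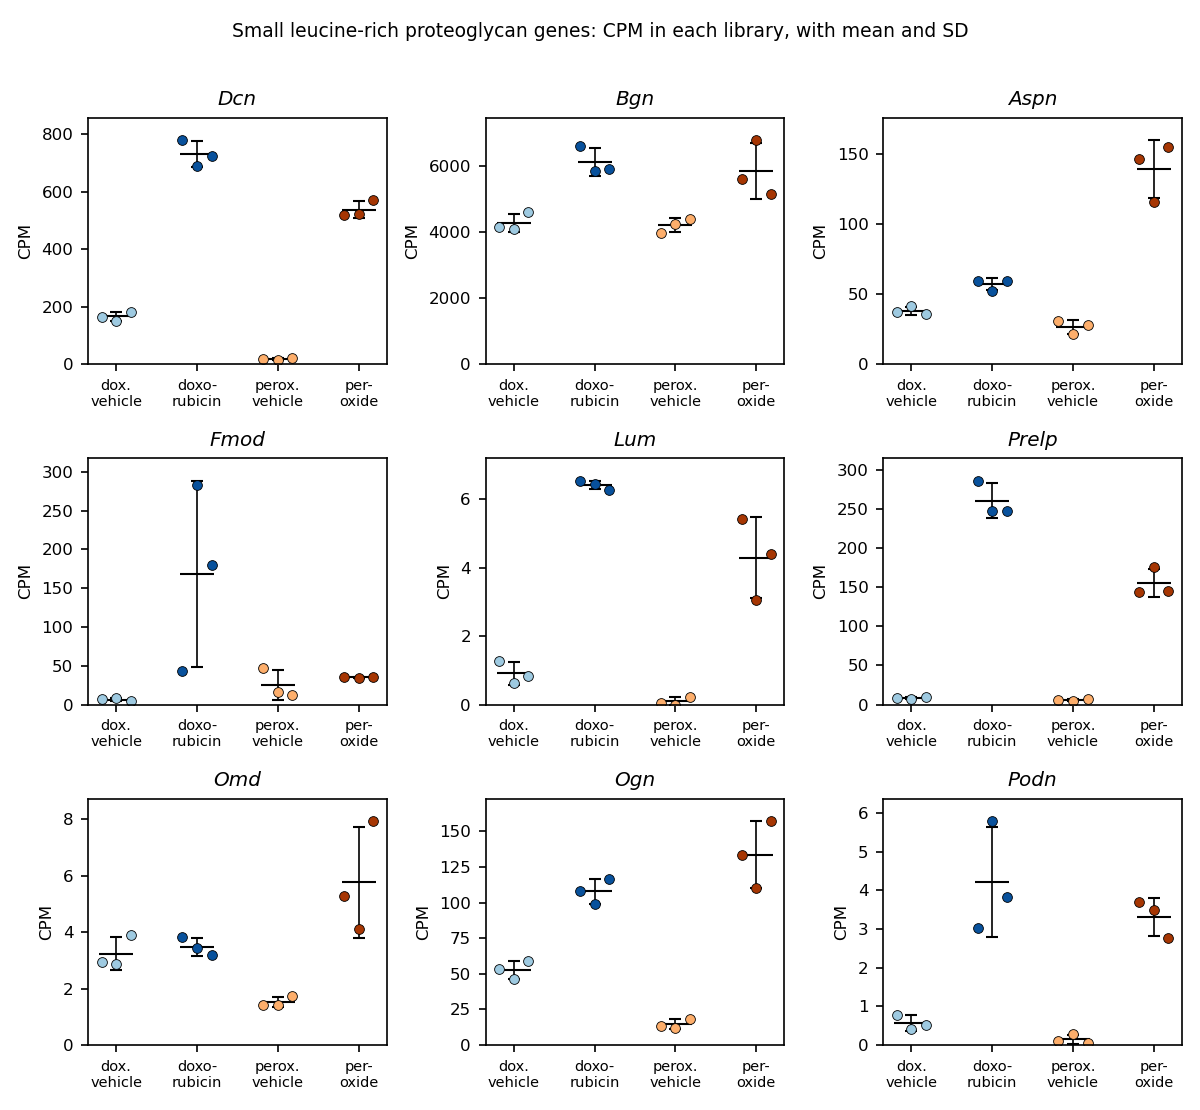
CPM of each member (vertical axis, starting at 0) in the 3 libraries of each group, shown as points, with the group mean and SD as bars. The Dcn vehicle groups sat at 152 to 182 and 14.6 to 20.7 CPM, and Fmod spread from 42.9 to 283 CPM within the doxorubicin group.

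**Figure D2:**
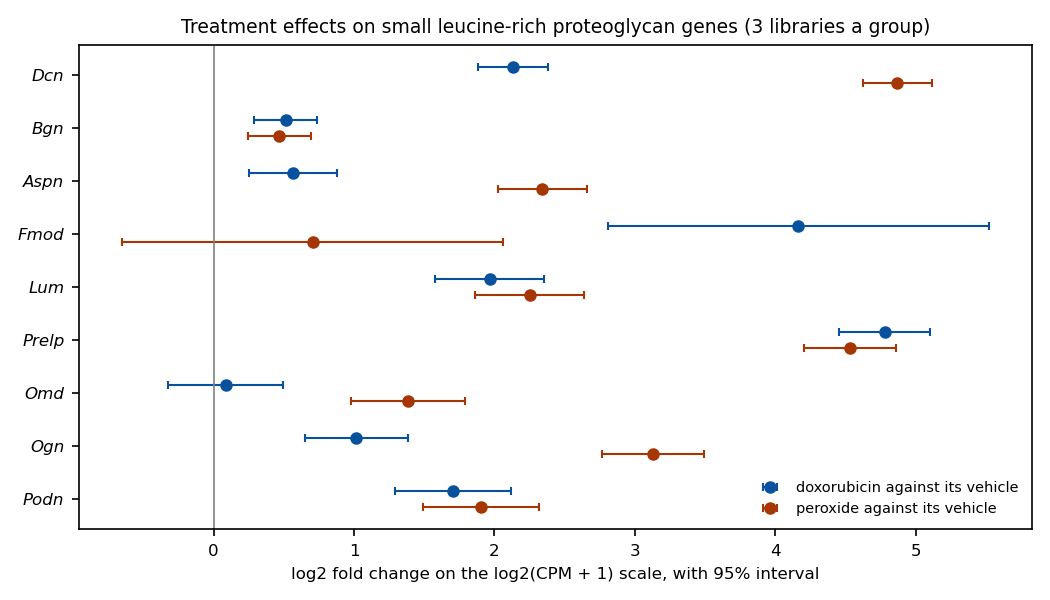
Log2 fold change of each member against its own vehicle group on the log2(CPM + 1) scale (horizontal axis), as points with 95% intervals, in blue for doxorubicin and brown for peroxide. Prelp lay at 4.78 and 4.53, Dcn at 2.13 and 4.87, and the intervals of Omd with doxorubicin and of Fmod with peroxide included 0.

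In class I, Dcn, Bgn and Aspn all rose with both treatments. Decorin binds the surface of collagen fibrils and sequesters TGF-beta. Its gene was at 779.8, 688 and 725 CPM in the doxorubicin libraries and at 165, 152 and 182 CPM in their vehicle. Peroxide libraries were at 518, 524 and 571 CPM, against 17.4, 14.6 and 20.7 CPM in the peroxide vehicle. No library of either treatment overlapped with its vehicle. The ratio of mean CPM was 4.40 with doxorubicin (log2 fold change 2.13 ± 0.11 SE, adjusted p = 6.56e-08) and 30.6 with peroxide (4.87 ± 0.11, adjusted p = 4.63e-10). By signed log2 fold change Dcn ranked 7 of 13280 tested genes with peroxide and 245 with doxorubicin.

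Biglycan, the closest relative of decorin in the family, binds collagen and can act on innate immune receptors once released. Bgn was at 6599, 5852 and 5928 CPM with doxorubicin and at 4168, 4092 and 4605 CPM in its vehicle. Peroxide libraries were at 5613, 6785 and 5161 CPM against 3980.3, 4238 and 4411 CPM. The treated and vehicle libraries did not overlap in either experiment, but the differences were the smallest called among the members. Bgn rose by 0.51 ± 0.10 log2 units with doxorubicin (SE, adjusted p = 0.00153) and by 0.47 ± 0.10 with peroxide (adjusted p = 0.00265). With upper-quartile scaling the doxorubicin value was 0.40 and no longer passed the test (adjusted p = 0.0764). Within all 4 groups the order of the Bgn values followed the library scores on the second principal component, as for 1.42% of tested genes, and the part of that direction in the Bgn result was not tested.

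Asporin carries a stretch of aspartate residues and binds collagen and TGF-beta. Aspn was at 59.7, 52.0 and 59.8 CPM with doxorubicin and at 37.6, 41.5 and 35.8 CPM in its vehicle. The peroxide libraries were at 147, 116 and 156 CPM, against 31.1, 21.3 and 28.1 CPM. Both treated groups lay above their vehicle without overlap, and the peroxide libraries were the highest of the 12. The log2 fold change was 0.57 ± 0.14 with doxorubicin (SE, adjusted p = 0.00699) and 2.34 ± 0.14 with peroxide (adjusted p = 2.31e-07).

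In class II, Prelp and Lum rose with both treatments, Omd with peroxide and Fmod with doxorubicin. PRELP is an arginine- and proline-rich protein that links collagen to basement membranes. Prelp was at 286, 248 and 247 CPM with doxorubicin and at 8.88, 7.25 and 9.54 CPM in its vehicle. With peroxide it was at 144, 176 and 145 CPM, against 6.20, 4.38 and 6.82 CPM. The lowest treated library was thus far above the highest vehicle library in both experiments. The ratio of mean CPM was 30.4 with doxorubicin (log2 fold change 4.78 ± 0.15 SE, adjusted p = 1.39e-09) and 26.7 with peroxide (4.53 ± 0.15, adjusted p = 3.89e-09). Prelp ranked 20 and 13 of the tested genes by signed log2 fold change. An antisense gene model, Gm15851, covers 9.68% of its exon bases. Whether the counting used strand is not given in the sources used here, and Gm15851 itself was at a mean of 0 to 0.206 CPM in the 4 groups.

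Lumican organises collagen fibrils, best known from the cornea, and its gene was near the detection floor in the peroxide vehicle. Lum was at 6.52, 6.44 and 6.27 CPM with doxorubicin and at 1.28, 0.638 and 0.821 CPM in its vehicle. After peroxide Lum was at 5.41, 3.06 and 4.39 CPM, against 0.0569, 0 and 0.231 CPM. No treated library overlapped with a vehicle library. The log2 fold change was 1.97 ± 0.18 with doxorubicin (SE, adjusted p = 4.62e-06) and 2.25 ± 0.18 with peroxide (adjusted p = 1.43e-06). Since the added 1 CPM compresses such low values, the reads were also pooled within groups. Doxorubicin libraries held an estimated 603 Lum reads and their vehicle 56, a ratio of 7.04 in CPM (95% exact interval 5.35 to 9.43, counting error only). Peroxide libraries held 313 and their vehicle 5, a ratio of 46.1 with an interval of 19.5 to 143.

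Osteomodulin is a keratan sulfate proteoglycan best known from bone. Omd was at 3.82, 3.43 and 3.20 CPM with doxorubicin and at 2.96, 2.87 and 3.90 CPM in its vehicle, and these groups overlapped. With peroxide it was at 5.28, 4.11 and 7.94 CPM, against 1.42, 1.43 and 1.73 CPM, without overlap. The rise with peroxide was 1.39 ± 0.19 log2 units (SE, adjusted p = 9.02e-05). With doxorubicin the difference was 0.09 ± 0.19 (adjusted p = 0.723, 95% interval -0.32 to 0.49), and -0.0037 with upper-quartile scaling. Of its transcript, 3.77% of 50-base windows also occur in other genes, so a small part of its reads may have been assigned elsewhere.

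Fibromodulin binds collagen at a site shared with lumican, and its effects had the largest standard error of the 9 members. Fmod was at 42.9, 283 and 179 CPM with doxorubicin and at 6.76, 8.57 and 4.26 CPM in its vehicle. With peroxide it was at 35.1, 34.6 and 36.1 CPM, against 46.7, 16.8 and 11.96 CPM. The doxorubicin group lay above its vehicle without overlap, whereas the first peroxide vehicle library exceeded all 3 peroxide libraries. The rise with doxorubicin was 4.16 ± 0.62 log2 units (SE, adjusted p = 2.10e-04), 4.95 without doxorubicin replicate 1 and 3.61 without doxorubicin replicate 2. With peroxide the difference was 0.71 ± 0.62 (adjusted p = 0.364, 95% interval -0.65 to 2.06). Without peroxide vehicle replicate 1 it was 1.26 (adjusted p = 0.123) and without peroxide vehicle replicate 3 it was 0.32 (adjusted p = 0.727).

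Within groups the Fmod values were ordered inversely to the scores on the second principal component. In each of the 4 groups, the library with the lowest score had the highest Fmod and the library with the highest score the lowest, an order held by 1.98% of tested genes. In the doxorubicin group the scores were 0.0133, -39.9 and -29.5 for replicates 1, 2 and 3, and in the peroxide vehicle they were -33.6, -18.9 and -7.06. In the peroxide group Fmod spanned only 34.6 to 36.1 CPM, for scores from 48.2 down to 14.2. Fmod is 1 of the genes that enter the component. The part of this direction in the Fmod result was not tested. Without the 3 libraries that stood apart the rise with doxorubicin was 4.71 (adjusted p = 1.62e-05), and without peroxide replicate 2 and doxorubicin vehicle replicate 3 it was 3.93 (adjusted p = 0.00127).

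**Figure D3:**
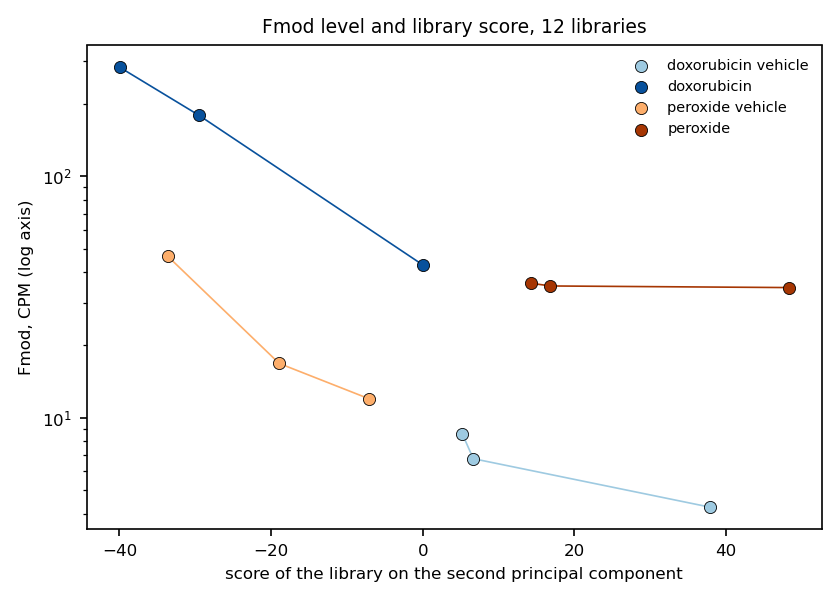
Fmod level in CPM (log axis) against the score of each library on the second principal component, with the 3 libraries of a group joined by a line. All 4 lines fall from left to right, from 283 to 42.9 CPM in the doxorubicin group and from 46.7 to 11.96 CPM in the peroxide vehicle. The peroxide line is nearly flat, from 36.1 to 34.6 CPM.

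In class III, osteoglycin, also named mimecan, is a small keratan sulfate proteoglycan of bone and connective tissue. Ogn was at 108, 99.1 and 117 CPM with doxorubicin and at 53.6, 46.4 and 58.8 CPM in its vehicle. After peroxide Ogn was at 133, 110.1 and 157 CPM, against 13.5, 11.7 and 18.3 CPM. Treated libraries lay above their vehicle in both experiments, while the treated groups overlapped with each other. Ogn rose by 1.02 ± 0.17 log2 units with doxorubicin (SE, adjusted p = 4.17e-04) and by 3.13 ± 0.17 with peroxide (adjusted p = 8.05e-08).

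Podocan, the class V member, binds type I collagen. Podn was at 3.03, 5.80 and 3.83 CPM with doxorubicin and at 0.789, 0.410 and 0.513 CPM in its vehicle. Libraries treated with peroxide were at 3.70, 3.49 and 2.76 CPM, against 0.114, 0.286 and 0.0578 CPM. All 6 treated libraries were above all 6 vehicle libraries. The rise was 1.70 ± 0.19 log2 units with doxorubicin (SE, adjusted p = 2.20e-05) and 1.90 ± 0.19 with peroxide (adjusted p = 8.68e-06). In pooled reads the ratio of pooled CPM was 7.81 with doxorubicin (95% exact interval 5.53 to 11.4, from 418 and 35 reads) and 20.8 with peroxide (10.8 to 45.9, from 254 and 9 reads). These intervals cover counting error only and leave out the spread between libraries.

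Whether the treatments differed in their effect was tested as the doxorubicin effect minus the peroxide effect. Of the 9 members, 4 responded more to peroxide and 1 more to doxorubicin, where 20.1% and 13.5% of tested genes were called. The share of calls in favour of doxorubicin was 40.3% over all genes, and 52.0% with median-of-ratios scaling. Dcn differed by -2.74 ± 0.16 log2 units (SE, adjusted p = 3.60e-06), Ogn by -2.11 ± 0.23 (adjusted p = 1.79e-04), Aspn by -1.78 ± 0.20 (adjusted p = 2.12e-04) and Omd by -1.30 ± 0.26 (adjusted p = 0.00456). Aspn, Omd and Ogn are the 3 neighbours on chromosome 13. Fmod differed the other way, by 3.46 ± 0.87 (adjusted p = 0.0128).

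The differences of the other 4 members did not pass the test, which does not show that their effects were equal. The 95% interval was -0.21 to 0.71 log2 units for Prelp and -0.78 to 0.38 for Podn. For Bgn it was -0.27 to 0.36 around a value of 0.05, which became -0.09 with upper-quartile scaling. For Lum it was -0.83 to 0.26 around -0.28. Here the handling of low values decided the call, since Lum differed by -1.89 with a pseudocount of 0.1 (adjusted p = 0.0271) and by -2.81 in limma voom on estimated reads (adjusted p = 0.0264).

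These differences combine the treated and the vehicle levels, and the vehicle groups were not alike. In the day 7 vehicle 6 of the 9 members were higher than in the day 6 vehicle and 0 were lower by limma (1, Fmod, at an unadjusted p below 0.05, and 0 by limma voom), where 15.1% and 12.9% of tested genes were called. Without overlap between libraries, 7 members lay higher and 1 lower, beside 25.9% and 26.3% of tested genes. These groups differ in experiment as well as in day, which cannot be told apart. Dcn stood 3.18 ± 0.11 log2 units higher in the day 7 vehicle (SE, adjusted p = 1.26e-07), rank 2 of the 13280 genes by signed log2 difference. Ogn was higher by 1.82 ± 0.17 (adjusted p = 2.72e-05), Lum by 0.80 ± 0.18 (adjusted p = 0.00670) and Omd by 0.74 ± 0.19 (adjusted p = 0.0124). Aspn at 0.51 ± 0.14 (adjusted p = 0.0214) and Prelp at 0.50 ± 0.15 (adjusted p = 0.0267) were closer to the threshold.

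The 3 smallest of the called vehicle differences missed the threshold when certain single libraries were left out. Prelp was at 0.47 log2 units without doxorubicin vehicle replicate 1 (adjusted p = 0.0783), at 0.43 without doxorubicin vehicle replicate 3 (adjusted p = 0.0982) and at 0.34 without peroxide vehicle replicate 2 (adjusted p = 0.0997). Without both peroxide replicate 2 and doxorubicin vehicle replicate 3, Prelp was at 0.43 in limma (adjusted p = 0.0631). Aspn was at 0.52 without doxorubicin vehicle replicate 1 (adjusted p = 0.0526), at 0.45 without doxorubicin vehicle replicate 2 (adjusted p = 0.0736) and at 0.36 without peroxide vehicle replicate 2 (adjusted p = 0.0823). Omd was at 0.63 without doxorubicin vehicle replicate 3 (adjusted p = 0.0531). Fmod was lower in the day 7 vehicle in every library, by 1.60 log2 units, but was not called (adjusted p = 0.0740). It was called without doxorubicin replicate 1 (adjusted p = 0.0148), without doxorubicin replicate 2 (0.0499) and without the 3 libraries that stood apart (0.0329). Podn was at 0.44 (adjusted p = 0.0997), and was called without doxorubicin replicate 2 (adjusted p = 0.0432) and with a pseudocount of 0.1 (0.0111). Bgn was at 0.03 (adjusted p = 0.874).

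The levels themselves ordered the groups in 3 ways. Dcn, Bgn, Lum, Prelp and Podn were highest with doxorubicin, then with peroxide, then in the doxorubicin vehicle, and lowest in the peroxide vehicle. The treated groups overlapped for Bgn and Podn, and the vehicle groups for Bgn. Ogn, Aspn and Omd were highest with peroxide, followed by doxorubicin, the doxorubicin vehicle and the peroxide vehicle. Of these neighbours, peroxide and doxorubicin overlapped for Ogn, and doxorubicin and its vehicle for Omd. Fmod was highest with doxorubicin and lowest in the doxorubicin vehicle, with the overlapping peroxide and peroxide vehicle groups between. For Dcn, therefore, the larger peroxide effect went with a lower treated level, 538 ± 29.0 against 731 ± 45.9 CPM, and with a vehicle at 17.6 ± 3.06 against 166 ± 14.9 CPM (SD, n = 3). For Aspn the vehicles were at 26.8 ± 5.03 and 38.3 ± 2.95 CPM and the treated groups at 139.6 ± 20.6 with peroxide and 57.2 ± 4.45 with doxorubicin.

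Per kilobase of the longest protein-coding transcript, Bgn was the highest member in every group, at 2532 CPM per kilobase with doxorubicin and 1740.3 in the peroxide vehicle. It made up 80.5% of the summed family level with doxorubicin and 83.5% with peroxide, against 92.8% and 97.9% in their vehicles. The share of Dcn was 13.2% with doxorubicin and 4.95% in its vehicle, and 10.6% with peroxide and 0.563% in its vehicle. Prelp held 2.29% and 0.124% in the doxorubicin experiment, and 1.48% and 0.0902% in the peroxide experiment. Dcn ranked 2 of the 9 in 3 groups and 3 in the peroxide vehicle, behind Aspn. Counted over the union of all exons it ranked 5 there. In CPM without length, the 9 genes summed to 7465 ± 367 with doxorubicin and 4565 ± 294 in its vehicle, and to 6868 ± 792 with peroxide and 4302 ± 201 in its vehicle (SD, n = 3). Without Bgn the sums were 1339 ± 47.8 against 277 ± 17.9 and 1015 ± 57.6 against 91.6 ± 23.2 CPM.

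**Figure D4:**
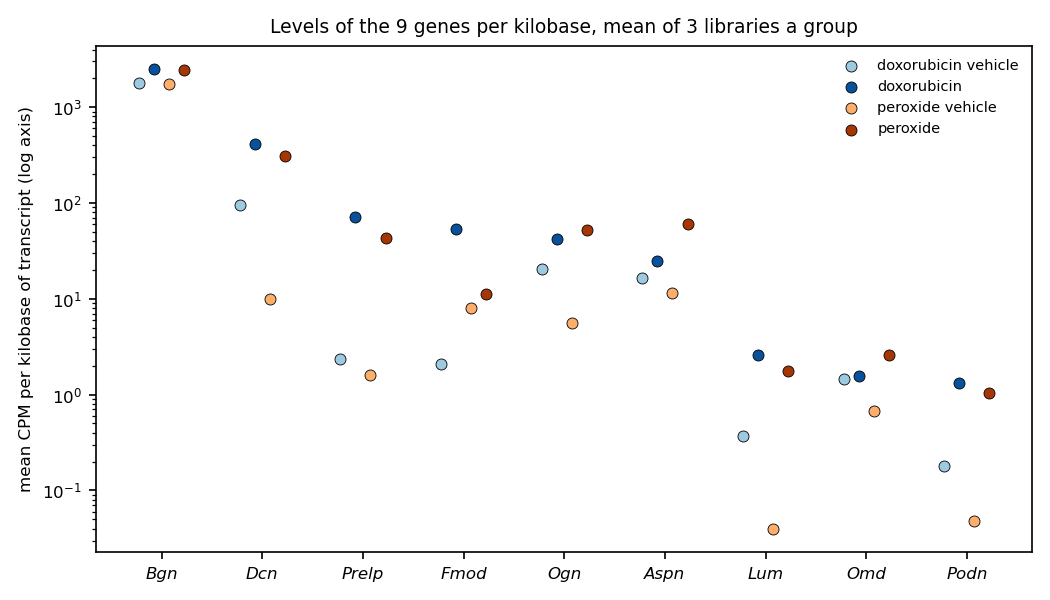
Mean level of each member in CPM per kilobase of transcript (log axis) in the 4 groups, 3 libraries each, ordered by the level with doxorubicin. Bgn is the highest in every group, from 1740.3 to 2532, and the peroxide vehicle point of Dcn, at 10.01, lies far below its other 3 points.

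Of the 9 genes, 7 lie in 3 groups on the chromosomes (mm10, GENCODE M21). Dcn (chromosome 10, 97479609 to 97518143) and Lum (97565128 to 97572703) are 47.0 kb apart on the plus strand, followed by the family members keratocan (Kera) and epiphycan (Epyc). Kera and Epyc were at group means of at most 0.0938 CPM and were not tested. Btg1, an antiproliferation gene 857 kb before Dcn, fell by 0.60 log2 units with doxorubicin and rose by 0.59 with peroxide.

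Aspn (chromosome 13, 49544443 to 49567565), Omd (49582462 to 49592822) and Ogn (49608046 to 49624501) follow each other on the plus strand with gaps of 14.9 and 15.2 kb. Ecm2, a relative with leucine-rich repeats 11.7 kb before Aspn, rose by 1.28 ± 0.21 log2 units with peroxide (SE, adjusted p = 4.29e-04). With doxorubicin Ecm2 was at 0.67 ± 0.21 (adjusted p = 0.0218), a call lost in 6 of 25 alternatives, among them those without doxorubicin replicate 2 (0.58), doxorubicin replicate 3 (0.65) or doxorubicin vehicle replicate 2 (0.55). Its value was thus also larger with peroxide, but the difference between treatments did not pass the test for Ecm2 (adjusted p = 0.132). Nol8, 28.6 kb beyond Ogn, was not called with either treatment (-0.14 and -0.19). Cenpp, a centromere gene on the minus strand whose span covers Aspn, Omd and Ogn, fell by 1.16 and 0.76 log2 units. It shares 0.297% of the Aspn exon bases and none of the others.

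Prelp (chromosome 1, 133910304 to 133921414, minus strand) and Fmod (134037254 to 134048277, plus strand) are 116 kb apart. Opticin (Optc), another member of the wider family 2.30 kb from Prelp, rose by 1.005 ± 0.121 log2 units with doxorubicin and by 1.061 ± 0.121 with peroxide (SE, adjusted p = 4.47e-05 and 2.68e-05). Its mean CPM was 1.54 against 0.261 and 1.36 against 0.131, so Optc passed the filter through its treated libraries. Btg2, an antiproliferation gene that p53 induces, lies 26.9 kb from Fmod. It rose by 1.78 ± 0.09 with doxorubicin and by 2.19 ± 0.09 with peroxide (adjusted p = 5.74e-08 and 1.66e-08). Fmod was thus the gene of this group without a called change with peroxide. Bgn (chromosome X, 73483602 to 73495933) and Podn (chromosome 4, 108014791 to 108096445) have no other member beside them. The coding sequences of Dcn and Bgn were the most alike of the 36 pairs, identical at 63.0% of the length of the longer.

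**Figure D5:**
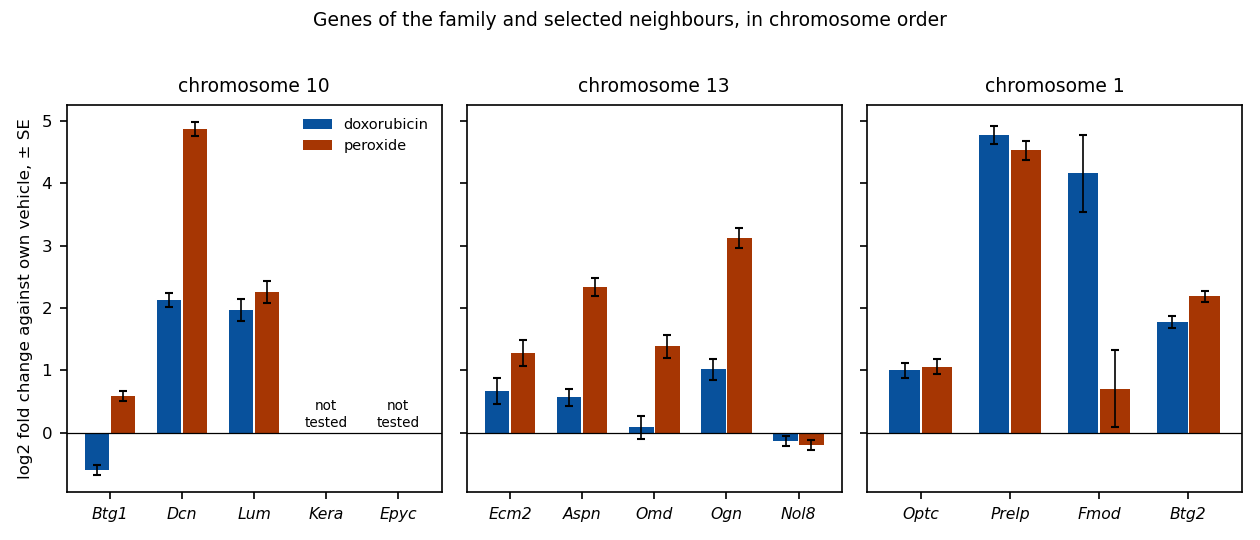
Log2 fold change against the own vehicle group (vertical axis, bars with SE) of members and selected neighbours in their order along chromosomes 10, 13 and 1, with blue for doxorubicin and brown for peroxide. On chromosome 13 the brown bars are the higher for Aspn, Omd and Ogn, and on chromosome 1 Fmod stands at 4.16 and 0.71.

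Among enzymes that build the sulfated chains, calls went in both directions, as they did over all tested genes. The counts for these and the later lists stand beside the shares of all tested genes that were called. These shares were 22.1% higher and 27.8% lower with doxorubicin, and 27.3% higher and 23.4% lower with peroxide. Linkage-region enzymes start chondroitin and dermatan sulfate chains. Of 7, 0 were called with doxorubicin by limma (1 at an unadjusted p below 0.05, and 0 by limma voom). With peroxide 2 rose. These were B3gat3 at 0.48 ± 0.11 log2 units (SE, adjusted p = 0.00332) and Fam20b at 0.26 ± 0.10 (adjusted p = 0.0459), the latter lost in 19 of 26 alternatives. With doxorubicin Fam20b was called when doxorubicin vehicle replicate 3 was left out (0.31, adjusted p = 0.0382). Of 11 tested chondroitin and dermatan sulfate enzymes, 5 rose and 2 fell with doxorubicin, and 1 rose with peroxide. Csgalnact1, which begins chondroitin chains, rose by 2.35 ± 0.42 with doxorubicin (adjusted p = 8.15e-04), at 246 ± 76.4 against 48.5 ± 18.7 CPM (SD, n = 3). With peroxide Csgalnact1 was at 0.82 (adjusted p = 0.126), or 1.22 without peroxide replicate 2 (adjusted p = 0.0290). Chpf2, which takes part in chain extension, rose by 1.76 ± 0.44 with doxorubicin (adjusted p = 0.00618) and was at -0.42 with peroxide (adjusted p = 0.446). Chst11, a chondroitin sulfotransferase, rose by 0.50 with doxorubicin and by 1.03 with peroxide. Of 7 tested keratan sulfate enzymes, 3 rose and 1 fell with doxorubicin, and 3 rose and 2 fell with peroxide. Chst1, a keratan sulfate sulfotransferase, fell with both, at -1.36 ± 0.14 and -1.502 ± 0.136, from 8.26 ± 0.579 to 2.62 ± 0.293 and from 11.6 ± 1.64 to 3.45 ± 0.612 CPM (SD, n = 3). St3gal1, a sialyltransferase of the same list, rose by 1.12 and 0.98. Of 8 tested genes that supply activated sulfate or handle sulfation, 2 rose and 2 fell with doxorubicin, and 1 rose and 2 fell with peroxide. Papss1, which makes the activated sulfate, fell by 0.64 and 0.27, the latter lost without peroxide vehicle replicate 3 (-0.19, adjusted p = 0.0512). Sumf1, which activates sulfatases, rose by 0.44 and 0.46. Slc35b2, which carries activated sulfate into the Golgi, rose by 1.07 ± 0.36 with doxorubicin (adjusted p = 0.0296) and was at -0.43 with peroxide (adjusted p = 0.353). The doxorubicin call of Slc35b2 was lost in 8 of 26 alternatives, among them those without doxorubicin replicate 2 (0.61), doxorubicin replicate 3 (1.13), or vehicle replicate 2 (1.15) or 3 (0.88). Bpnt1, which breaks down the product of sulfation, fell by 0.59 with peroxide (adjusted p = 1.57e-04) and was at 0.06 with doxorubicin (adjusted p = 0.597).

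Collagens that bind these proteoglycans rose more often than not. Of 12 tested, 7 rose and 1 fell with doxorubicin, and 8 rose with peroxide. Their median log2 fold changes were 0.56 and 0.55, beside -0.03 and -0.01 over all tested genes. Col3a1, the main chain of type III collagen, went from 799.5 ± 85.3 to 1689.8 ± 276 CPM with doxorubicin and from 298 ± 40.5 to 1310.4 ± 182 with peroxide (SD, n = 3). These were rises of 1.07 ± 0.15 and 2.13 ± 0.15 log2 units. Col5a1, a collagen V chain that sets fibril diameter, rose by 1.16 and 1.37, and the minor fibrillar chain Col11a1 by 1.22 and 0.74. Of 9 tested genes for proteases that act on small proteoglycans or aggrecan, or for the protease enhancer Pcolce, 8 rose with each treatment. Among them was Mmp3, which was at 0 in both vehicle groups. Adamts1 rose by 1.92 ± 0.08 with doxorubicin and 1.21 ± 0.08 with peroxide, and Mmp2, a gelatinase, by 1.24 ± 0.14 and 1.95 ± 0.14. The aggrecanase Adamts5 rose by 1.23 and 1.38. Its relative Adamts4 rose by 1.36 with doxorubicin and was at 0.64 with peroxide (adjusted p = 0.141), or 1.01 without peroxide replicate 2 (adjusted p = 0.0178).

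Of 20 tested signalling partners and receptors, 13 rose and 2 fell with doxorubicin, and 10 rose and 2 fell with peroxide. Egfr, a receptor that decorin binds, rose by 1.72 ± 0.17 and 1.53 ± 0.17 log2 units (SE). Tgfbr2, a TGF-beta receptor, rose by 0.84 and 1.55, and the matrix-associated signalling protein Ccn2 by 2.00 and 0.35. The peroxide call of Ccn2 was lost without peroxide replicate 1 (0.32), without peroxide vehicle replicate 3 (0.30) and with a replicate block (adjusted p = 0.0549). It was also lost in limma without the 3 libraries that stood apart (0.34, adjusted p = 0.0512). Of 14 tested other proteoglycans, 10 rose and 2 fell with doxorubicin, and 9 rose and 1 fell with peroxide. Agrn, a basement membrane proteoglycan, rose by 2.18 and 1.31, the lubricant proteoglycan Prg4 by 1.60 and 3.18, and the glypican Gpc4 by 1.64 and 0.69. Cspg4, a pericyte proteoglycan also listed among pericyte markers, fell by 1.90 with peroxide and was at -0.33 with doxorubicin (adjusted p = 0.137), or -0.51 without doxorubicin vehicle replicate 3 (adjusted p = 0.0296). Of 9 further members and relatives of the leucine-rich family, 3 were tested, of which 3 rose with doxorubicin and 2 with peroxide. Of these, Optc passed the filter through its treated libraries. Tsku was at 0.80 with doxorubicin, which missed the threshold without doxorubicin vehicle replicate 3 (0.61, adjusted p = 0.0795). With peroxide Tsku was at 0.21 (adjusted p = 0.508), or 0.50 without peroxide replicate 2 and doxorubicin vehicle replicate 3 (adjusted p = 0.0204).

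Some markers of other cell types moved with the family. Of 12 cartilage, bone and tendon markers, 4 were tested, of which 4 rose with doxorubicin and 3 with peroxide. Their summed level was 114 to 126 CPM with doxorubicin and 45.7 to 46.3 in its vehicle, and 132 to 154 with peroxide and 47.7 to 53.7 in its vehicle. Tnmd, which encodes the tendon protein tenomodulin, rose by 3.06 ± 0.10 and 2.50 ± 0.10 log2 units (SE), from 6.03 ± 0.585 to 57.6 ± 4.03 and from 12.9 ± 1.42 to 77.6 ± 2.40 CPM (SD, n = 3). Bglap, the bone protein osteocalcin, rose by 3.04 and 3.08, from 0.255 to 9.32 and from 0.133 to 8.55 CPM in the group means. It passed the filter through its treated libraries, and the added 1 CPM compresses its change. Sox9, a regulator of cartilage cells, rose by 0.41 and 0.99, the former lost without doxorubicin replicate 3 (0.39), doxorubicin vehicle replicate 1 (0.40) or vehicle replicate 3 (0.40). The bone regulator Runx2 rose by 0.47 with doxorubicin, a call lost without doxorubicin replicate 3 (0.36) or doxorubicin vehicle replicate 2 (0.42), and was at -0.02 with peroxide (adjusted p = 0.907). Acan was at 0 in 3 groups and at a mean of 0.0177 CPM with doxorubicin, and Sp7 was at 0 in all but the peroxide vehicle. Whether cells of these types were present, and whether they had a part in the family's rise, was not tested.

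Of 12 epithelial markers Krt19 alone was tested, and it fell by 1.08 and 2.31 log2 units. The first call was lost without doxorubicin vehicle replicate 1 (-0.98, adjusted p = 0.0554) or replicate 2 (-0.99, adjusted p = 0.0541). The epithelial genes Krt14, Krt8 and Elf5 were at 0 in both vehicle groups and with peroxide. Of 10 endothelial markers 1, Tek, was tested and rose by 1.35 and 1.65, and Cldn5 was at 0 in every group. Of 10 leukocyte markers 3 were tested, and 3 rose with doxorubicin, while 2 rose and 1 fell with peroxide. Lyz2, a myeloid lysozyme, rose by 2.01 and 2.35 and Cd68 by 0.77 and 0.68, and Csf1r was up by 0.58 with doxorubicin and down with peroxide (-0.57). The list summed to 27.3 to 32.8 CPM with doxorubicin, 11.2 to 17.9 in its vehicle, 23.6 to 26.6 with peroxide and 16.4 to 17.4 in its vehicle. Of 8 adipocyte markers 5 were tested, and 2 rose and 3 fell with doxorubicin, and 2 rose and 2 fell with peroxide. That list, led by Lpl, summed to 1423 to 1509 CPM with doxorubicin and 2291 to 2490 in its vehicle, and to 2120.0 to 2222 with peroxide and 1069 to 1253 in its vehicle. Lpl fell by 0.69 with doxorubicin and rose by 1.08 with peroxide. The lipid carrier Fabp4 fell by 1.48 and 0.86, and the adipocyte regulator Pparg by 1.05 and 1.55. Of 10 pericyte and Schwann cell markers 5 were tested, and 3 rose with doxorubicin, while 3 rose and 1 fell with peroxide. They summed to 46.3 to 50.1 and 30.4 to 37.9 CPM in the doxorubicin experiment, and to 48.3 to 56.9 and 31.2 to 34.5 CPM in the peroxide experiment, with S100b the highest. S100b rose by 0.49 and 1.73, the former lost with upper-quartile scaling (0.38, adjusted p = 0.0607), and Notch3 by 1.09 and 1.26. Of 16 tested fibroblast identity markers, 9 rose and 3 fell with doxorubicin, and 11 rose and 1 fell with peroxide. Mfap5, a microfibril protein, rose by 2.98 and 2.57, Cd34 by 1.16 and 2.89, and the surface glycoprotein Thy1 by 1.32 and 0.70.

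Across the 12 libraries, the members did not all share one pattern. As a description, the Pearson correlation of log2(CPM + 1) between members ran from 0.982 for Dcn with Ogn to 0.146 for Fmod with Omd. These libraries share their groups, so such values largely follow the group means. Lum, Prelp and Podn correlated with each other at 0.963 to 0.968. Other tested genes were ranked by their correlation with each member, leaving out predicted gene models (Gm and Rik names). The most alike was Gas7 for Dcn (r = 0.996), Pamr1 for Prelp (0.998), Sema3c for Ogn (0.993) and Mturn for Lum (0.988). For the others it was Ssc5d for Podn (0.987), Extl3 for Fmod (0.986), Setbp1 for Aspn (0.980), Acadsb for Omd (0.976) and Adar for Bgn (0.9752). Next came Sema3c and Tent5a for Dcn, Xaf1 and Mfap5 for Prelp, Ghr and Mansc1 for Ogn, and Ccl8 and Cpq for Lum, at 0.983 to 0.997. For Podn they were Pstpip1 and Greb1, for Fmod Angpt4 and Btbd19, for Aspn Tmem220 and Fam114a1, for Omd Atg10 and Slc35a5, and for Bgn Oas1b and Ubb, at 0.968 to 0.983. Gas7 was at mean levels of 233 CPM with doxorubicin, 50.6 in its vehicle, 164 with peroxide and 7.99 in its vehicle, the same order as Dcn. Extl3 was at 38.9, 10.05, 19.0 and 17.7 CPM in the same groups, the order of Fmod.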

How the data were processed

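RNA of 12 libraries was sequenced on a NovaSeq instrument, per the labels. The authors deposited CPM values (counts per 1000000 assigned reads). The submitters' processing notes list the mm10 build, DRAGEN and bcl2fastq, with no version. How reads were counted is not given in the sources used here. Of 55774 lines, 287 repeated an identifier. For 168 repeated identifiers the lines were identical and 1 of each was kept. Depth (17.3 to 37.6 M reads) was estimated from the CPM value of 1 read. Of values up to 20 reads, 74.7 to 79.9% were whole at a tolerance of 0.001, and 100% were whole hundredths of a read. The values were thus in part fractional, and the main test was run on CPM, not with a count model. Pooled reads are estimates from this depth, rounded.

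Genes that reached 1 CPM in 3 or more libraries were tested on log2(CPM + 1) with limma 3.58.1 (R 4.3.3, mean-variance trend, 4 group means, two-sided). Counts over gene lists thus include genes, such as Optc, Bglap and Mmp3, that passed this filter through treated libraries alone. Benjamini-Hochberg adjustment ran over all 13280 genes of each comparison, with a threshold of 0.05. The script was tested on simulated data.

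The members, gene lists and tests were chosen with earlier results of these data known. All 9 members are named. Of each other list, the rule takes the 2 called genes with the largest fold change per treatment at 5 CPM or more in the higher group. It also takes markers of other cell types at 10 CPM or more, the nearest protein-coding neighbours, and the genes most correlated with each member. Predicted gene models were left out of these correlated genes. Krt14, Krt8, Elf5, Cldn5, Acan, Sp7, Tcf21, Cenpp and Epyc were named to describe lists or spans. Of 211 list symbols, 210 were matched. Bpnt2 was not, but it is a newer symbol of Impad1, which was listed, matched and tested. Of the identifiers, 99.4% were found in GENCODE M21. Alternatives covered pseudocounts of 0.1 and 2, filters, scalings, no trend, array weights, separate fits, a replicate block, a threshold of 0.01 and leaving out libraries. After the data were examined, limma voom on estimated reads was added. Tables and figures used Python 3.11.15, numpy 2.4.6, pandas 2.3.3, matplotlib 3.10.9 and Biopython 1.88.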

Additional observations from a re-analysis of the deposited data

Results flagged for a closer look

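For 5 members the effects of the treatments differed by the test of the difference itself (limma, doxorubicin effect minus peroxide effect). Dcn was at -2.74 log2 units, Ogn at -2.11, Aspn at -1.78 and Omd at -1.30, all with the larger effect in the peroxide experiment. Fmod was at 3.46, with the larger effect in the doxorubicin experiment. Groups of 3 libraries were not tested for outlying values.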

How the results depend on the processing

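Over up to 26 alternatives for each treatment, the 8 members that rose with peroxide and 7 of the 8 that rose with doxorubicin kept direction and call, and Bgn with doxorubicin lost its call with upper-quartile scaling. At a threshold of 0.01 the difference between effects held 0 members higher in place of 1, and the vehicle comparison 3 members higher in place of 6. In the vehicle comparison 1 member, Fmod, was called lower with array weights (whose estimation stopped short of its convergence tolerance) and without the 3 libraries that stood apart. Leaving out libraries in turn, the count of members lower ran from 0 to 1. Values near 0 changed sign. Omd with doxorubicin was at -0.00372 with upper-quartile scaling. With upper-quartile scaling Bpnt1 and B3gat3 with doxorubicin were at -0.0557 and -0.0755, and Sox9, Sumf1 and Chst11 with doxorubicin and Papss1 with peroxide lost their calls. Without each library in turn, B3gat3 with doxorubicin ran from -0.00334 to 0.108, Runx2 with peroxide from -0.154 to 0.0631 and Tsku with peroxide from -0.0285 to 0.4997. Runx2 with peroxide was at 0.0631 without the 2 or the 3 libraries that stood apart. The Bgn difference between effects was -0.0851 with upper-quartile scaling and ran from -0.0386 to 0.159 without each library in turn, below 0 without doxorubicin replicate 1 or peroxide replicate 3. Bgn between vehicles was -0.00828 with array weights and -0.0265 without the 2 or the 3 libraries that stood apart. It ran from -0.0265 to 0.0602 without each library in turn, below 0 without doxorubicin vehicle replicate 3 or peroxide vehicle replicate 1. With median-of-ratios scaling the level of Lum with doxorubicin was 6.56 in place of 6.41 CPM and that of Fmod with peroxide 34.3 in place of 35.3 CPM. Upper-quartile scaling moved the median of all genes from -0.07 to -0.18 in the difference between effects. Over all genes, the difference held 1796 calls higher, 2847 with array weights, 623 at 0.01, and 1131, 1190 and 1141 without doxorubicin replicate 3, doxorubicin vehicle replicate 3 and peroxide vehicle replicate 1. It held 2665 lower, and 1318 at 0.01. The vehicle comparison held 2001 higher and 1718 lower, 1124 and 918 at 0.01, and 2694 lower with array weights. The causes of these changes were not tested. The data did not settle whether replicate numbers pair the samples. Deviations of same-numbered libraries correlated at -0.311, 0.194 and -0.277 in the doxorubicin experiment and at 0.143, 0.0304 and -0.237 in the peroxide experiment. Deviations from a mean of 3 libraries are tied to each other, so these values cannot decide it. With a replicate block 2605 genes were called higher and 3352 lower with doxorubicin, against 2937 and 3690 without it, and not every library correlated best with its own number. Depth limits Lum and Podn most in the peroxide vehicle, where 3 reads are 0.143 to 0.173 CPM. They held an estimated 5 and 9 pooled reads there, against 56 and 35 in the doxorubicin vehicle.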
